A study of Homo sapiens with 45 samples.

Results

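The genes described here are HNRNPK, which encodes heterogeneous nuclear ribonucleoprotein K, and its relatives PCBP1, PCBP2, PCBP3 and PCBP4, which encode the poly(C)-binding proteins. They were chosen by name as the poly(C)-binding family of the siRNA target, and all 5 are among the 28278 gene names of the main RNA count table. The study depleted HNRNPK in HCT116 cells, a long-established line from a human colon tumour, and profiled RNA together with chromatin domains. The RNA groups were siNTC5, a nontargeting siRNA with 4 libraries, siHNRNPK, the HNRNPK siRNA with 4 libraries, and Scramble, a nontargeting control with 2 libraries. Chromatin immunoprecipitation (ChIP) groups were siControl and siHNRNPK. Replicate ChIP libraries were made for lamin B1, H3K9me3 and H3K27me3 in both, and for H3K9me2 in siControl alone. Every group received siRNA at a final concentration of 25 nM and was collected after 72 hours, and no sample is labelled as untreated. No second HNRNPK siRNA is labelled for RNA, so an effect of this siRNA outside HNRNPK cannot be told apart from an effect of losing HNRNPK.

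Proteins of this family bind single-stranded, C-rich RNA and DNA through repeated K-homology (KH) domains. HNRNPK works in the nucleus and the cytoplasm in transcription, splicing, mRNA stability and translation. PCBP1 and PCBP2 stabilise and silence mRNAs with C-rich tracts and carry iron to ferritin and to iron enzymes, and PCBP1 is an intronless copy that arose from a PCBP2 transcript. PCBP4 is known for a role in cell cycle arrest and apoptosis, and PCBP3 is the least studied of the 4 paralogs.

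The bases just upstream of the annotated starts show how far each gene carries the C-rich tracts that this family binds in DNA. Sequences are the 250 bases before the RefSeq start in GRCh38.p14, written 5′ to 3′ on the strand of the gene. Capitals mark every CCCTCCC and every run of CCCCC on either strand, so a run of G in capitals is a match on the other strand. Matches may overlap each other, and overlapping matches are counted separately. The HNRNPK window lies at chr9:83980616-83980865 on the minus strand, PCBP1 at chr2:70087227-70087476 on the plus strand, PCBP2 at chr12:53451852-53452101 on the plus strand, and PCBP4 at chr3:51967467-51967716 on the minus strand.
HNRNPK: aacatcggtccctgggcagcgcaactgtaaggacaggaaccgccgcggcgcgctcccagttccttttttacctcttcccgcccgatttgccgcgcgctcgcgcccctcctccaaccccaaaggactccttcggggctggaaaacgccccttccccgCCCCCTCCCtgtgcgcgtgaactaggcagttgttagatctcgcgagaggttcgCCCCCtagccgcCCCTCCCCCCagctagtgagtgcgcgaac
PCBP1: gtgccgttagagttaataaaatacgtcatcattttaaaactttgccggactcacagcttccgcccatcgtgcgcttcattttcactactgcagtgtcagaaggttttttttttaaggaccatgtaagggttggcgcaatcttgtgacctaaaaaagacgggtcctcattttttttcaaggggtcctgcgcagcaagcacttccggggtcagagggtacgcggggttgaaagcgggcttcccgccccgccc
PCBP2: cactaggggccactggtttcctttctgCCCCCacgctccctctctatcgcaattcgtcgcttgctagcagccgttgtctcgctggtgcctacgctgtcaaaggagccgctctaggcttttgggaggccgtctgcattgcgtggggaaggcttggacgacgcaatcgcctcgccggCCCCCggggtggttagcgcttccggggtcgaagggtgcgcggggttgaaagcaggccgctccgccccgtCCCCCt
PCBP4: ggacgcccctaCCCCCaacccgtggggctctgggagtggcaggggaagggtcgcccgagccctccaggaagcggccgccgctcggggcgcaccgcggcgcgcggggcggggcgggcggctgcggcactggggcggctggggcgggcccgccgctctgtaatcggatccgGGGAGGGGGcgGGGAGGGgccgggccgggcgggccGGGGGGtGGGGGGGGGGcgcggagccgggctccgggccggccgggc

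CCCTCCC is the core of the C-rich element type that HNRNPK is known to bind upstream of MYC. It was found 2 times in the HNRNPK window, on the strand of the gene, and 2 times in the PCBP4 window, on the other strand. The PCBP1 and PCBP2 windows held no CCCTCCC. Among 27305 RefSeq promoter windows of the same length, 23.6% held CCCTCCC on either strand and 54.0% held CCCCC. The shorter motif was found 4 times in the HNRNPK window and 3 times in the PCBP2 window, each on the strand of the gene. In the PCBP4 window it was found 1 time on the strand of the gene and 9 times on the other strand, and the PCBP1 window held none. GC content was 65.6% for HNRNPK, 50.0% for PCBP1, 65.6% for PCBP2 and 84.8% for PCBP4, beside a median of 58.0% over all windows. PCBP1 and PCBP4 had the lowest and the highest GC content and number of matches of the 4 windows shown, and the RefSeq table used here gave no window for PCBP3. Some other annotated starts differ: the window of a second HNRNPK start held CCCTCCC 1 time, on the other strand, and that of another PCBP4 start held none at 59.6% GC. The window of a further PCBP4 start, at chr3:51967455-51967704, was much like the one shown. It held CCCTCCC 2 times and CCCCC 9 times on the other strand, at 84.8% GC. A match describes the sequence alone, and no binding of these proteins to DNA was measured.

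The 8 libraries of the main comparison held between 12107280 and 23633851 gene counts, and the Scramble libraries held 59209169 and 55007171. The TruSeq stranded mRNA kit served for replicates 1 and 2 of siNTC5 and siHNRNPK, and the Stranded mRNA Ligation kit for replicates 3 and 4. The labels do not say that libraries came from separate cultures, so p-values measure the spread between these libraries, which may be technical. Of the epithelial markers, KRT8, KRT18, EPCAM, CDH1 and KRT19 each had at least 1425 counts in every siNTC5 and siHNRNPK library, whereas VIL1 had 1 to 6 counts. KRT8, KRT18, EPCAM and CDH1 were called higher and KRT19 lower after depletion. Of 7 markers of other cell types, CHGA had 0 counts in every siNTC5 and siHNRNPK library, PTPRC, PECAM1, COL1A2 and ALB had at most 12, and DES had 50 to 228. COL1A1 was the exception at 910 to 1443 counts. The part of these marker changes in the values below was not tested. In bulk RNA, fewer cells with a transcript and less of it per cell cannot be told apart.

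HNRNPK RNA was reduced to 22.4% of its control level, and PCBP1, PCBP2 and PCBP4 were all lower with it. Levels are CPM, read counts scaled to a common library size by TMM, given for replicates 1 to 4 in order. In siNTC5 HNRNPK had 934, 967, 822 and 814 CPM, and in siHNRNPK it had 250.3, 223, 157 and 164 CPM. The groups were far apart, and within each the TruSeq libraries were the higher pair. The mean went from 884 ± 78.0 to 199 ± 45.3 CPM (SD, n = 4). The log2 fold change was -2.17 (SE 0.06, edgeR quasi-likelihood adjusted p = 7.293e-15, 95% confidence interval -2.30 to -2.05). HNRNPK is the siRNA target, so this value checks the labels, and the library labels and the target level matched in all 8 libraries. It was nevertheless not the most reduced transcript: 0.668% of the 13933 genes tested had a lower log2 fold change, placing HNRNPK at position 94 from the bottom.

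PCBP2, a cytoplasmic and nuclear regulator of mRNA stability and an iron chaperone, had 609, 646, 596 and 589 CPM in siNTC5. In siHNRNPK it had 461, 449, 419 and 421 CPM. Every depleted library was below every control library, with a gap wider than the spread inside either group. The mean fell from 610.2 ± 25.4 to 437 ± 20.8 CPM (SD, n = 4), or 71.7% of control. The log2 fold change was -0.48 (SE 0.04, edgeR adjusted p = 2.339e-09, 95% interval -0.56 to -0.40).

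PCBP1, its intronless paralog and the other iron chaperone, had 265, 246, 250.2 and 250.0 CPM in siNTC5 and 193, 176, 206 and 209.6 CPM in siHNRNPK. The groups did not overlap, and here the TruSeq libraries were the lower pair after depletion. The mean went from 253 ± 8.39 to 196 ± 15.2 CPM (SD, n = 4), or 77.5% of control. The log2 fold change was -0.37 (SE 0.05, edgeR adjusted p = 2.135e-06, 95% interval -0.47 to -0.27).

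PCBP4, the paralog known for a role in cell cycle arrest, had 69.2, 64.2, 65.7 and 61.3 CPM in siNTC5 and 44.2, 46.7, 40.1 and 48.4 CPM in siHNRNPK. No depleted library reached the lowest control. The mean went from 65.1 ± 3.28 to 44.8 ± 3.59 CPM (SD, n = 4), or 68.9% of control. The log2 fold change was -0.54 (SE 0.06, edgeR adjusted p = 4.558e-07, 95% interval -0.67 to -0.40).

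PCBP3 was read at 25 to 60 counts in each siNTC5 and siHNRNPK library. It had 2.61, 1.25, 3.80 and 3.28 CPM in siNTC5 and 2.44, 1.86, 2.53 and 2.88 CPM in siHNRNPK. All 4 depleted values lay inside the range of the controls, whose own lowest and highest libraries differed more than the groups did. The log2 fold change of -0.10 (SE 0.24, edgeR adjusted p = 0.709) had a 95% interval of -0.60 to 0.39. A reduction of the size seen in PCBP1, PCBP2 or PCBP4 lies inside that interval, so at this depth neither such a fall nor its absence was detectable.

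**Figure D1:**
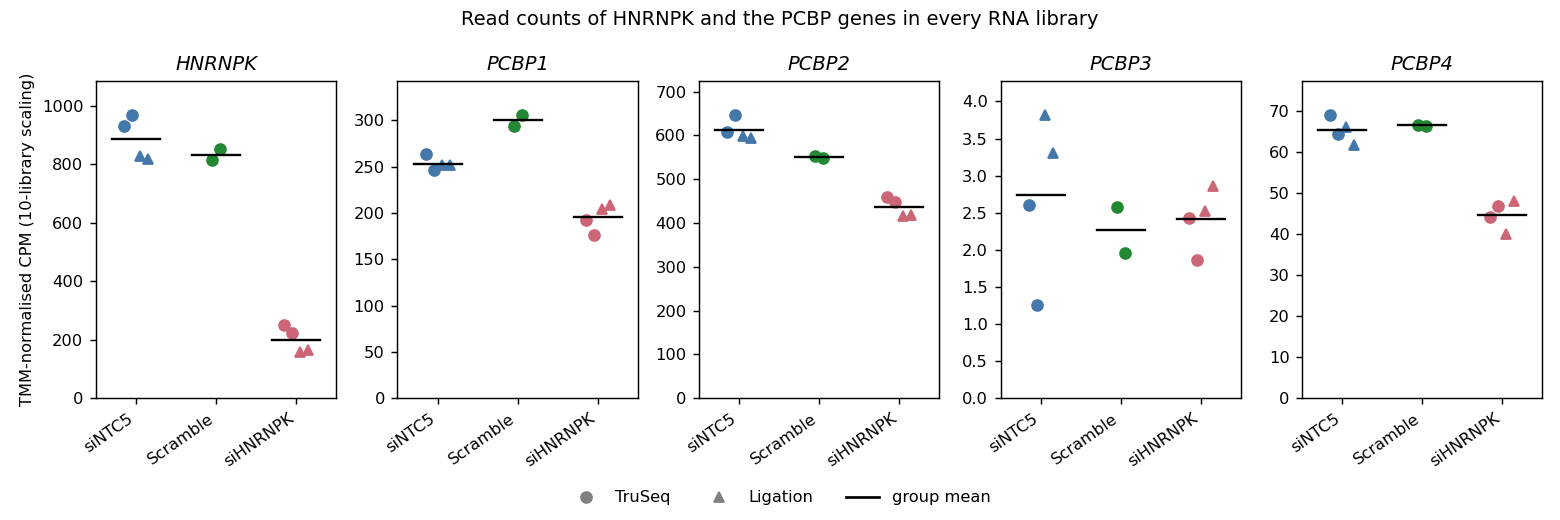
TMM-normalised CPM (vertical axes, linear, starting at 0 and scaled for each gene) in the 4 siNTC5, 2 Scramble and 4 siHNRNPK libraries, scaled over all 10. Circles are TruSeq and triangles Ligation libraries, and lines are group means. Depleted libraries lie below every control library for HNRNPK, PCBP1, PCBP2 and PCBP4, and among the controls for PCBP3.

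All 5 genes passed the filter on low counts, and 4 of them were called lower at an adjusted p under 0.05, beside 36.1% of all genes tested that were called lower and 71.5% that were called in either direction. The same 4 had groups that did not overlap, beside 28.0% of all genes. A two-sided exact permutation test on log2 CPM gave p = 0.0286 for HNRNPK, PCBP1, PCBP2 and PCBP4, the smallest value 4 against 4 libraries can give, and p = 0.857 for PCBP3. The reductions of the paralogs were moderate within the whole table: 20.5% of genes had a lower log2 fold change than PCBP4, 22.7% than PCBP2 and 28.0% than PCBP1. With so many genes called, a call alone does not set these paralogs apart from other transcripts.

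The library kits gave the same direction for the 4 called genes. The TruSeq libraries left HNRNPK at 24.9% and the Ligation libraries at 19.6% of the controls of the same kit. For PCBP1 the depleted level was 72.2% with TruSeq and 83.0% with Ligation. PCBP2 was at 72.4% and 70.8%, and PCBP4 at 68.1% and 69.7%. The kits thus gave nearly the same level for PCBP2 and PCBP4 and a wider gap for HNRNPK and PCBP1. PCBP3, by contrast, was at 111% with TruSeq and 76.4% with Ligation. A test of the difference between kits called none of the 5 genes, beside 0.129% of all genes, or 18, and 1639 genes at an unadjusted p under 0.05. The interaction on the log2 scale was -0.34 for HNRNPK (edgeR adjusted p = 0.1005, unadjusted p = 0.0005712). For PCBP1 it was 0.20 (edgeR adjusted p = 0.351, unadjusted p = 0.0257). Without the filter on low counts the HNRNPK interaction was -0.36 with an adjusted p of 0.000847, so its call depends on that filter.

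The second nontargeting control gave another reference level. After scaling over 10 libraries and 25527 shared gene names, HNRNPK had 815 and 851 CPM in Scramble, PCBP2 had 554 and 549 CPM, and PCBP4 had 66.4 and 66.4 CPM. PCBP1 had 294 and 306 CPM, above all siNTC5 libraries, and PCBP3 had 2.58 and 1.95 CPM. The Scramble values of HNRNPK, PCBP1, PCBP2 and PCBP4 were all above every depleted library. The Scramble libraries differ from siNTC5 in purification kit, depth, count table and control name, and these cannot be told apart.

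Set against Scramble, the same 4 genes were called lower in siHNRNPK, beside 42.4% of the 14642 genes tested. The log2 fold change was -1.91 for HNRNPK (SE 0.08, edgeR adjusted p = 7.316e-14) and -0.65 for PCBP1 (SE 0.06, adjusted p = 1.176e-08). It was -0.29 for PCBP2 (SE 0.05, adjusted p = 1.992e-05) and -0.54 for PCBP4 (SE 0.08, adjusted p = 2.916e-06). PCBP3 gave -0.25 (SE 0.29, adjusted p = 0.421) and was not called. The order of the paralogs changed with the control used: PCBP1 had the smallest reduction of the 3 called paralogs against siNTC5 and the largest against Scramble. For PCBP2 this call ended with upper-quartile scaling (-0.11, edgeR adjusted p = 0.0529) and with unscaled totals (-0.09, adjusted p = 0.0962).

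The controls also differed from each other in these genes. Between Scramble and siNTC5, 69.3% of genes were called in either direction, and HNRNPK, PCBP1 and PCBP2 were among them. HNRNPK was lower in Scramble by -0.28 (SE 0.08, edgeR adjusted p = 0.00421) and PCBP2 by -0.20 (SE 0.05, adjusted p = 0.00134) on the log2 scale, whereas PCBP1 was higher by 0.28 (SE 0.06, adjusted p = 0.000438). PCBP4 differed by 0.00 (95% interval -0.16 to 0.16, adjusted p = 0.994) and PCBP3 by 0.14 (adjusted p = 0.667). With unscaled totals PCBP1 was no longer called (0.04, adjusted p = 0.528) and PCBP4 was called lower (-0.23, adjusted p = 0.00799). Without the kit term neither HNRNPK (-0.09, edgeR adjusted p = 0.644) nor PCBP2 (-0.15, adjusted p = 0.0506) was called between the controls. The Scramble libraries are all TruSeq, whereas siNTC5 holds both kits, so that fit mixes kit with control. With TruSeq libraries alone both were called, HNRNPK at -0.19 (edgeR adjusted p = 0.0119) and PCBP2 at -0.19 (adjusted p = 0.00606). The unscaled totals moved the median over all genes from 0.04 to -0.20. Relative to the median of all genes, the differences were -0.31 for HNRNPK, 0.24 for PCBP1, -0.24 for PCBP2 and -0.04 for PCBP4 under TMM and under unscaled totals alike. Both depletion comparisons share the siHNRNPK libraries, and each shares its control libraries with the comparison between controls. Their values are therefore set side by side and not as separate support.

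**Figure D2:**
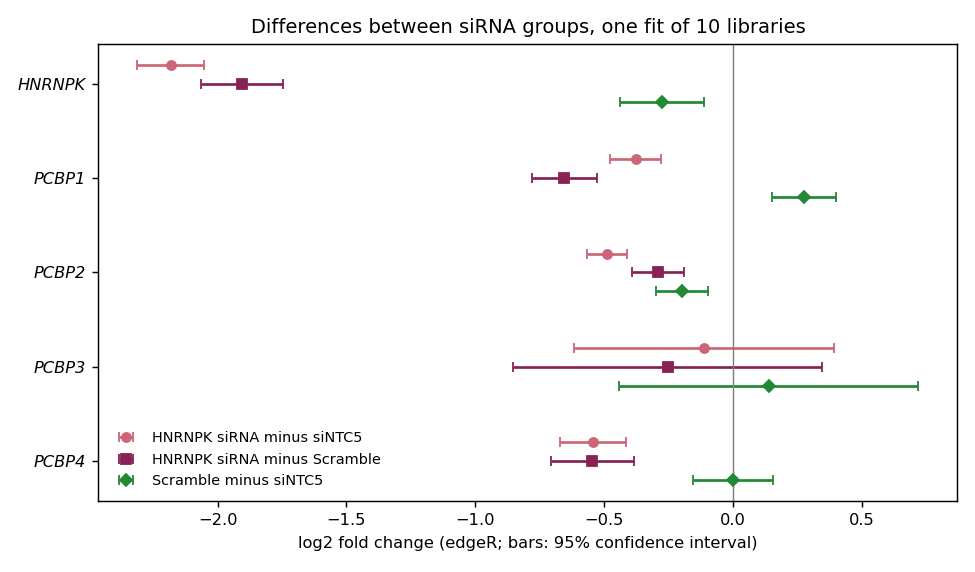
Log2 fold changes (horizontal axis) of the 5 genes (vertical axis) in 3 comparisons from 1 edgeR fit of 10 libraries, with bars for 95% confidence intervals. HNRNPK lies near -2 in both depletion comparisons, the intervals of PCBP3 cross 0 in all 3, and PCBP1 and PCBP2 lie on opposite sides of 0 for Scramble minus siNTC5.

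Ratios of read counts within a library do not depend on scaling, and they show whether the genes fell by the same factor. They are not corrected for transcript length, so only their change between groups is read. The HNRNPK to PCBP1 ratio went from 3.49 in siNTC5 to 0.996 in siHNRNPK (geometric means), a log2 change of -1.81. The HNRNPK to PCBP2 ratio went from 1.45 to 0.446, a log2 change of -1.70, and the HNRNPK to PCBP4 ratio from 13.6 to 4.35, a log2 change of -1.64. In each case all 4 depleted libraries were below all 4 controls. Each of these, and HNRNPK to PCBP3 with a log2 change of -2.11, had an exact permutation p of 0.0286, the smallest 4 against 4 libraries can give. After adjustment over the 10 pairs compared that p was 0.0714, above the threshold of 0.05. With 4 pairs at the smallest p the adjusted value cannot be lower, so the test could not call them whatever their size. HNRNPK is the siRNA target, so the fall of its ratios was largely set by the depletion and says little about the paralogs.

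Among the paralogs that were called, the ratios moved little. The PCBP1 to PCBP2 ratio was 0.414 in siNTC5 and 0.448 in siHNRNPK, a log2 change of 0.11 (exact permutation p = 0.314). It was -0.01 within the TruSeq libraries and 0.23 within the Ligation libraries. The PCBP2 to PCBP4 ratio changed by 0.06 (exact permutation p = 0.514) and the PCBP1 to PCBP4 ratio by 0.17 (p = 0.143). No pair of these 3 was shown to change by different factors, and this does not show that they changed equally.

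**Figure D3:**
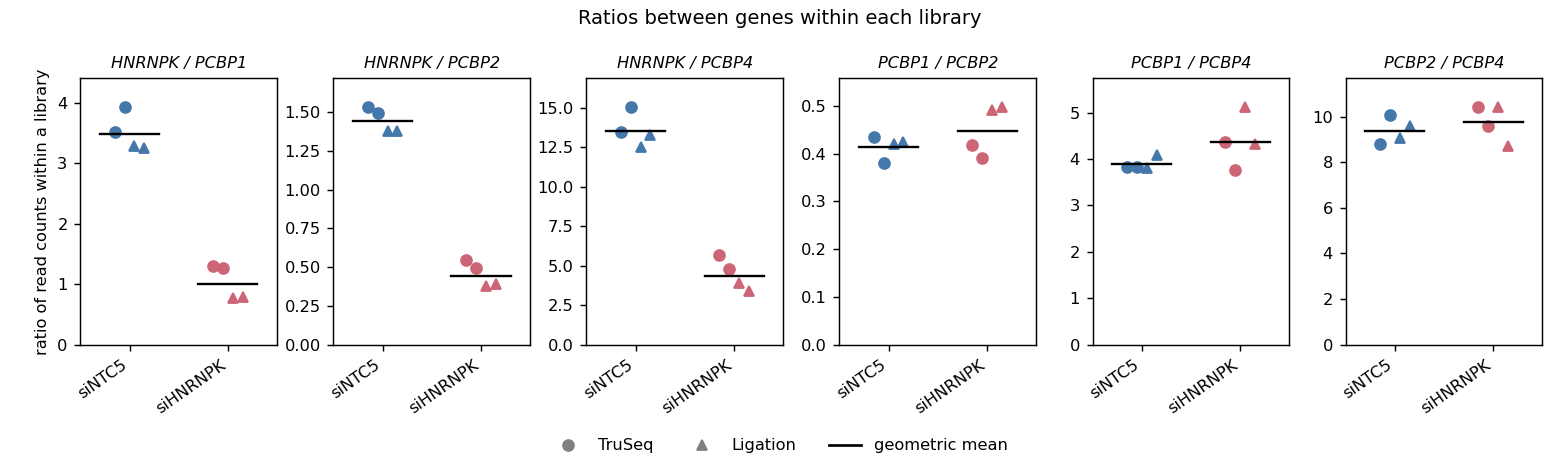
Ratios of read counts (vertical axes, linear, starting at 0) within each siNTC5 and siHNRNPK library for 6 pairs of genes, with geometric means as lines, circles for TruSeq and triangles for Ligation. The 3 ratios with HNRNPK drop in every depleted library, and the 3 ratios between paralogs overlap between the groups.

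The summed level of the paralogs was lower in every depleted library. PCBP1 to PCBP4 together had 904 to 957 CPM in siNTC5 and 667 to 700.4 CPM in siHNRNPK. The means were 931 ± 25.1 and 680.5 ± 14.6 CPM (SD, n = 4), so the depleted sum was 73.1% of control. PCBP2 makes up most of the difference of 250.3 CPM, with 173 CPM, followed by PCBP1 with 56.7 CPM. With HNRNPK included, the 5 genes went from 1815 to 879 CPM, or 48.4%. The HNRNPK share of the reads of the 5 genes went from 48.7% ± 1.54 to 22.4% ± 3.73 (SD, n = 4). These sums count reads, not transcripts, and carry no test.

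Transcripts whose profile over the 8 libraries was most like each gene were found by the root mean square (RMS) difference of log2 CPM, centred on the siNTC5 mean, over 9997 genes. Nearest to HNRNPK were PHKA2, PEG10 and ATP6V0A2, at RMS differences of 0.0986, 0.130 and 0.146. PHKA2, a regulatory subunit of phosphorylase kinase, went from 44.9 to 10.2 mean CPM. Nearest to PCBP1 was TRAP1, a mitochondrial HSP90 chaperone, at 0.0273, then HOOK3 and MRPL38. Near to PCBP2 were ADD1 and HSBP1, both at 0.0371. Nearest to PCBP4 were TMUB2, TALDO1 and C11orf49, at 0.0597 to 0.0670. No family member was the closest profile of another. Ordered by likeness to PCBP4, PCBP2 stood at position 125, and ordered by likeness to PCBP2, PCBP4 stood at 353 and PCBP1 at 816.

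Other genes with KH domains, the RNA-binding fold that defines this family, moved in both directions. Of 38 listed, 33 were tested, and 16 were called higher, 10 lower and 7 neither. Their median log2 fold change was 0.12, beside -0.004 over all genes tested, of which 35.5% were called higher and 36.1% lower. IGF2BP3, an mRNA-stabilising protein of fetal and tumour cells, went from 230.3 to 83.6 mean CPM (log2 fold change -1.45). KHDC4, a splicing factor, went from 78.7 to 165 (1.06), PNO1, a ribosome assembly factor, from 54.6 to 99.3 (0.87), and ANKHD1 from 5.66 to 10.7 (0.90). SF1, the branch point binding protein, had 390.2 and 411 mean CPM and was not called (edgeR adjusted p = 0.115).

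**Figure D4:**
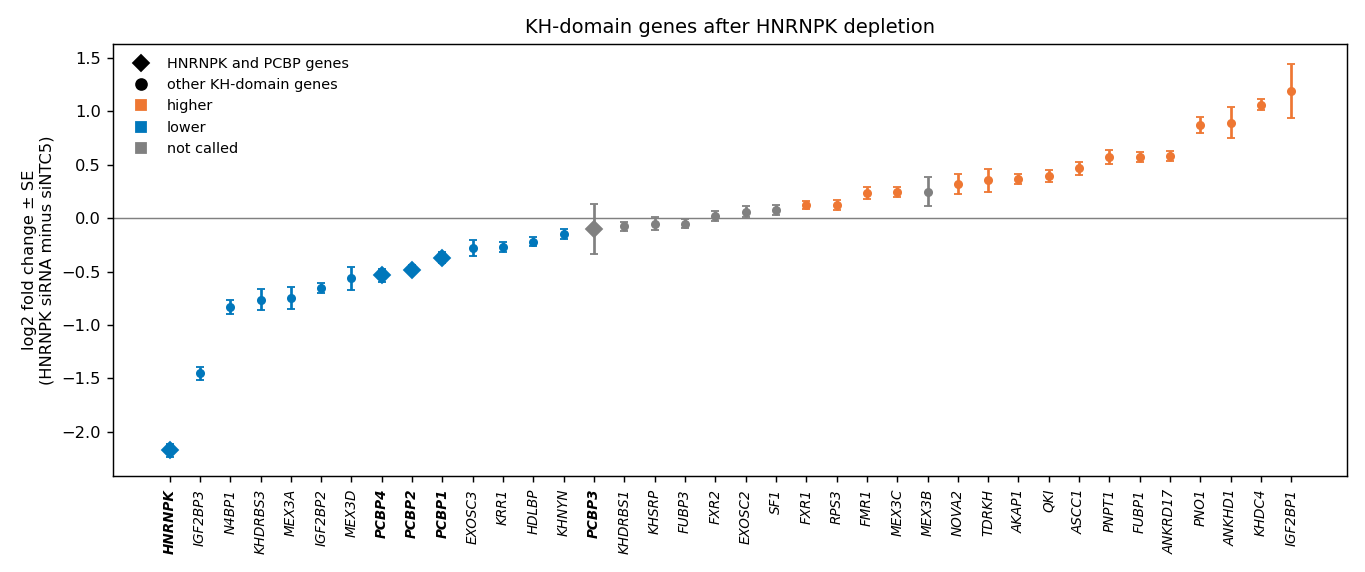
Log2 fold change of siHNRNPK against siNTC5 with its SE (vertical axis) for the 33 tested KH-domain genes and the 5 family members, in order of value (horizontal axis). Diamonds are HNRNPK and the PCBP genes, and colours show calls at an adjusted p under 0.05. HNRNPK is the lowest, 3 paralogs stand in the lower part, and 16 other KH-domain genes are called higher.

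Genes of iron handling, which PCBP1 and PCBP2 serve as iron chaperones, were called in both directions, in shares near those over all genes tested. Of 17 listed, 15 were tested, with 5 called higher (33.3%), 7 lower (46.7%) and 3 neither, and a median of -0.14, beside 35.5% higher and 36.1% lower over all genes. TFRC, the transferrin receptor for iron uptake, went from 478 to 986 mean CPM (log2 fold change 1.05), and FTL, the ferritin light chain, from 1131 to 1609 (0.50). EGLN3, an iron-dependent prolyl hydroxylase, went from 20.2 to 6.05 (-1.72), and HMOX1, the heme oxygenase that frees iron, from 34.4 to 23.1 (-0.58). FTH1, the ferritin heavy chain, had 133 ± 40.8 and 125 ± 43.5 CPM (SD, n = 4) and was not called (edgeR adjusted p = 0.145).

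Of 25 genes known as targets or partners of HNRNPK or of the PCBP proteins, 21 were tested. Of these, 7 were called higher (33.3%), 9 lower (42.9%) and 5 neither, with a median of -0.05, again near the shares over all genes of 35.5% and 36.1%. TYMP, thymidine phosphorylase, went from 12.5 to 6.14 mean CPM. RUNX1, a transcription factor, went from 38.1 to 69.5 mean CPM (log2 fold change 0.86), and COL1A1, a collagen chain whose mRNA the PCBP proteins are known to bind, from 60.1 to 97.6 (0.69). EIF4G1, a translation initiation factor, had 929 and 934 mean CPM and was not called (edgeR adjusted p = 0.875). MYC, added here after its value was seen because its upstream element carries CCCTCCC, changed by 0.13 (SE 0.04, edgeR adjusted p = 0.0134).

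Some of the 5 genes overlap other annotated genes, which matters where reads from both strands are counted together. The strand setting of the counting is not given in the sources used here. PCBP2, at chr12:53452102-53481162 in GRCh38, shares 1.49 kb at its end with MAP3K12, a kinase gene on the opposite strand. MAP3K12 had 525 to 871 counts in siNTC5 and 850 to 1145 in siHNRNPK, a log2 fold change of 0.98 (SE 0.08, edgeR adjusted p = 3.988e-09), the opposite direction to PCBP2. PCBP1, at chr2:70087477-70089203, shares 0.732 kb with the antisense transcript PCBP1-AS1, which was not called (-0.25, edgeR adjusted p = 0.160). HNRNPK, at chr9:83968083-83980615, shares 0.257 kb with RMI1 (0.20, edgeR adjusted p = 0.0146) and contains MIR7-1, whose row had 6 to 15 counts. The widest overlap of HNRNPK, 3.69 kb, is with the antisense transcript HNRNPK-AS1 on the opposite strand, for which no counts were analysed here. PCBP3 shares 8.58 kb with PCBP3-AS1, which had at most 1 count in each siNTC5 and siHNRNPK library. The HNRNPK pseudogene HNRNPKP3 had 0 counts in all 10 libraries. PCBP4, at chr3:51957454-51967466, shares 0.046 kb with GPR62, which had at most 14 counts. Reads from other copies of a gene could be split in counting, which was not tested.

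The chromatin lists placed PCBP3 apart from the other genes. The ChIP libraries had replicates, but there is 1 list per antibody and siRNA, so the lists carry no replicate values. PCBP3, at chr21:45643725-45942450 in GRCh38, lay wholly within an H3K27me3 domain, the mark of Polycomb repression. That domain was chr21:45535001-46210000 in control cells and chr21:45535001-46205000 after depletion, with the authors' scores of 1.37 and 1.25, whose unit is not given. HNRNPK, PCBP1, PCBP2 and PCBP4 were outside every domain of lamin B1, H3K9me2, H3K9me3 and H3K27me3, also when 50 kb were added on each side. PCBP3 was therefore the only one of the 5 inside any domain of the 7 lists. It was also the gene read at the fewest counts and, at 299 kb, the longest of the 5. A link between domain and counts was not tested, and the share of all genes inside such domains is not given here.

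The domain nearest to a called gene was an H3K9me3 domain beside PCBP4, 92.5 kb away in control cells and 67.5 kb away after depletion. For PCBP2 the nearest was H3K27me3 at 224 kb in control cells and 234 kb after depletion, and for PCBP1 H3K27me3 at 581 kb in both. For HNRNPK, H3K27me3 lay 388 kb away in control cells and 383 kb after depletion, and lamin B1 408 kb and 768 kb. Lamin B1 domains, which mark contact with the nuclear lamina, were 1244 kb from PCBP2 in control cells and 3674 kb after depletion. H3K9me2 has a control list alone. With 1 list per condition, no change in distance can be set against replicate error.

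**Figure D5:**
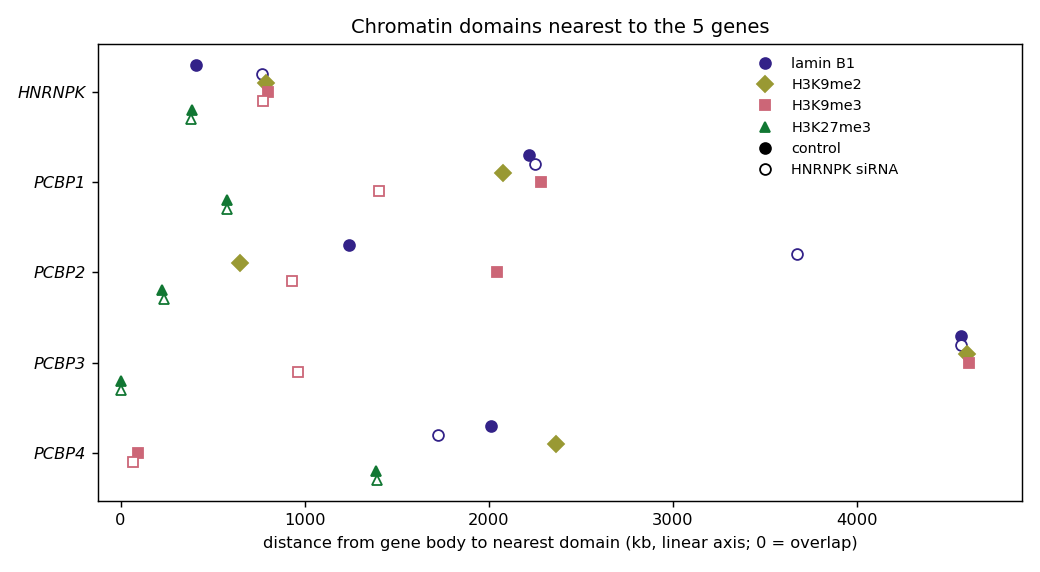
Distance from the gene body to the nearest domain (horizontal axis, kb, linear, 0 for overlap) for each of the 5 genes (vertical axis) in the 7 domain lists, with filled symbols for control and open symbols for HNRNPK siRNA. PCBP3 is at 0 for H3K27me3 in both conditions, and every other symbol lies above 0.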

How the data were processed

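RNA was sequenced from 10 HCT116 libraries, and the authors deposited whole-number counts per gene as 3 count tables. Per the submitters' processing notes, reads were aligned with STAR 2.7.1a and counted with featureCounts, with Subread 2.0.6 and hg38 named for the 8-library table and DESeq2, hg19 and hg38 for the Scramble tables; which build those counts use is not given in the sources used here. Per the labels' protocols, Scramble RNA was purified with another kit. The authors also deposited 7 domain lists in hg38 with a score per domain, for which the notes name Bowtie2 2.5.1 and deepTools 3.1.3; the domain caller and score unit are not given in the sources used here.

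From the counts, edgeR 4.0.16 (R 4.3.3, limma 3.58.1) was run with filterByExpr, TMM and quasi-likelihood tests with kit and treatment, adjusted by Benjamini and Hochberg over all genes tested at a threshold of 0.05. The 8-library table was used for the depletion and kit tests, and the 25527 shared names for Scramble. Exact permutation tests were two-sided, and count ratios used a pseudocount of 0.5. Replicate numbers are shared between siNTC5 and siHNRNPK. Deviations from the group mean correlated across genes within a number with r of 0.1004, 0.4246, 0.3365 and 0.2653. A replicate block was therefore run as an alternative, and the exact permutation tests left the libraries unpaired. Kit follows the numbers, and with kit means also removed r was 0.058 for replicates 1 and 2 and 0.0090 for replicates 3 and 4. Pairing beyond kit was thus not shown. Other alternatives were other scalings, DESeq2 1.42.0, other filters, no kit term, each kit alone, added controls and left-out libraries. The test for summed levels named in the plan was dropped, since a sum over chosen genes carries no p.

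Members and lists were chosen with earlier results of these data known. Named genes are the 5 members, their overlapping rows and pseudogenes, the 4 largest called changes with an average log2 CPM of at least 3 in each list, its highest gene not called, and the 3 genes most like each member; genes of this rule that are not named in the text are not reported here. Positions and promoters are from RefSeq, GRCh38, with all 5 genes matched to positions and 4 to promoters. Steps were tested on simulated data: of 48 genes of 13792 lowered by 0.5 on the log2 scale, 30 were called, and of 49 lowered by 2, 49 were called. The simulation changed 200 genes and held no kit effect, whereas 71.5% of genes were called in the data. These counts therefore check the steps and do not give the sensitivity in the data. Python 3.11.15 with pandas 2.3.3, scipy 1.17.1 and matplotlib 3.10.9 made lists and figures.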

Additional observations from a re-analysis of the deposited data

Results flagged for a closer look

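One value stood apart from the other replicates of its group, by the size of its gap relative to the range of the group. The log2 ratio of PCBP1 to PCBP4 counts was 2.03 in siNTC5 replicate 4, above the other siNTC5 libraries. It was 1 of 32 groups of 4 libraries checked, and chance flags about 1 in 20 such groups.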

How the results depend on the processing

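In the main comparison with siNTC5, the calls of HNRNPK, PCBP1, PCBP2 and PCBP4 held under every alternative run. A mean of at least 50 counts left no value for PCBP3. With the replicate block in place of kit the log2 fold changes were -2.18, -0.37, -0.48 and -0.54, and -0.12 for PCBP3; the block changed no call. PCBP3, not called, was 0.21 with TruSeq libraries alone and -0.34 to 0.025 with 1 library left out. PCBP3 was -0.39 with Ligation libraries alone.

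The kit interaction of HNRNPK was -0.36 and called without a filter, and that of PCBP4 was -0.011 with upper-quartile scaling. Against Scramble, depletion gave -0.11 for PCBP2 with upper-quartile scaling, -0.089 with unscaled totals (chosen after seeing the data), and 0.087 for PCBP3 with no kit term. For Scramble against siNTC5, no kit term gave -0.090 for HNRNPK, -0.15 for PCBP2, both no longer called, and -0.24 for PCBP3. In the same comparison with TruSeq libraries alone, HNRNPK and PCBP2 were each at -0.19 and stayed called. Unscaled totals gave 0.042 for PCBP1, -0.096 for PCBP3 and -0.23 for PCBP4. PCBP4 was -0.0019 with DESeq2 size factors, -0.13 with upper-quartile scaling and -0.0059 with TruSeq libraries alone, and PCBP3 was -0.076 to 0.33 with 1 Scramble library left out. Unscaled totals moved the median of all genes to -0.20 for Scramble against siNTC5 and to 0.16 for depletion against Scramble; relative to it, PCBP2 was -0.25 in the latter under every scaling. Beyond that shift the cause was not tested.

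With 1 library left out, the PCBP1 to PCBP3 ratio changed by -0.50 to 0.021. Exact sign flips within replicate numbers gave an adjusted p of 0.25 for each ratio of HNRNPK to a paralog. With so few replicate numbers, sign flips cannot give a p under 0.05 whatever the size of a change. The sign flips therefore could not call any ratio, and nothing about pairing is concluded from them. A minimum absolute log2 fold change of 1 left 3 of 33 KH-domain genes, 2 of 15 iron genes and 1 of 21 targets or partners called. Over all 13933 genes tested, it left 1041 called higher and 1154 called lower. Sums per length were not run, because transcript lengths were not used here.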

Other observations

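The IGF2BP genes, a small family of KH-domain mRNA-binding proteins, moved in opposite directions and were picked out here after their values were seen. IGF2BP3 went from 230.3 ± 25.4 to 83.6 ± 4.61 CPM and IGF2BP2 from 262 ± 32.0 to 166 ± 9.30 CPM (mean ± SD, n = 4), with log2 fold changes of -1.45 and -0.65. IGF2BP1, read at 13 to 42 counts in each siNTC5 and siHNRNPK library, went from 1.05 to 2.39 mean CPM (log2 fold change 1.19, SE 0.25, edgeR adjusted p = 0.000372). No difference between these genes was tested.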
